A study of Mus musculus with 20 samples.

Results

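The genes described here code for the mitochondrial respiratory chain and were followed in sorted mouse intestinal cells and in intestinal organoids. The set has 49 members among 54838 gene rows: 13 messenger RNAs encoded in mitochondrial DNA and 36 nuclear genes for subunits of complexes I to IV and for cytochrome c. It was a fixed list of symbols, matched through GENCODE M21. The rule uses no measured value, but the members were chosen with earlier results of these data known. The 13 mitochondrial members comprise 7 subunits of complex I, 1 of complex III, 3 of complex IV and 2 of ATP synthase (complex V). The 36 nuclear members comprise 17 subunits of complex I, 4 of complex II, 6 of complex III and 8 of complex IV, and *Cycs*. All 49 passed the filter on low values in both sets of libraries, so no member was lost from the tests.

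The respiratory chain sits in the inner mitochondrial membrane and passes electrons from NADH (complex I) and succinate (complex II) through complex III and cytochrome c to oxygen at complex IV. The energy released is stored as a proton gradient that complex V uses to make ATP. Complexes I, III, IV and V combine subunits from both genomes, while complex II is wholly nuclear and is also an enzyme of the citric acid cycle. In the intestine, crypt stem cells and the enterocytes that descend from them are both known to depend on mitochondrial metabolism, and Paneth cells are known to rely more on glycolysis.

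Total RNA was extracted from cells and organoids of C57BL/6 mice, and 20 libraries were sequenced. The study concerned *Mettl3*, the catalytic subunit of the enzyme that writes N6-methyladenosine on messenger RNA. Crypt cells were sorted by flow cytometry into Lgr5-high and Lgr5-low gates, Lgr5 being the receptor that marks crypt stem cells. WT cells, labelled wild type and untreated, gave 2 libraries per gate. Cells labelled *Mettl3*-/- came from mice given tamoxifen at 20 mg/ml for 4 days: 1 library per gate at day 3, 2 per gate at day 4, and 2 at day 6, whose labels name no gate, although the column header of the first names a low gate. The protocol's mice carry *Mettl3*fl/fl with Lgr5-EGFP-IRES-CreERT2 and Villin-CreERT2, which drive Cre in stem cells and throughout the epithelium, and it also names *Mettl3*fl/fl mice without Cre that received tamoxifen. Which mice gave the WT gates is not stated, so an effect of tamoxifen or Cre cannot be told apart from the deletion. The organoids, grown from mice with the floxed allele and both Cre drivers, gave 2 libraries in each of 4 groups. These were WT (ethanol for 2 days) and 3 groups labelled *Mettl3*-/- (4-OHT for 2 days): knockout alone, the knockout with virally delivered *Ascl2*, *Klf9*, *Fosb* (called AKF), and that combination with *Purb* as well (called AKFP). Organoids were infected with the factors' viruses and selected with puromycin, and the titles of the WT and knockout organoids carry the tag "m3-flag", with no meaning given. Whether these organoids were infected with any virus is not stated, so effects of infection cannot be told apart from those of the factors.

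Values are FPKM: fragment numbers divided by transcript length and by the size of the library, so that levels can be compared between genes. Differences are of log2(FPKM + 1), which understates the change of low genes. A gene was called when limma's adjusted p was under 0.05, with adjustment over all 12899 genes tested in tissue or 12657 in organoids. No label says that replicates were separate animals or cultures, so p measures only the spread between libraries. A rough depth estimate ranged from 14.9 to 25.4 M fragments per library. Epithelial markers (*Epcam*, *Krt8*, *Cdh1*, *Vil1*) summed to between 1832 and 3180.3 FPKM. Stem cell markers (*Lgr5*, *Ascl2*, *Olfm4*, *Smoc2*) summed to 2945 and 3153 FPKM in WT Lgr5-high and 567 and 508 in WT Lgr5-low. Immune markers summed to between 76.8 and 570.3 FPKM in tissue and to at most 1.34 in organoids. *Mettl3* was 3.42 to 4.86 FPKM in WT tissue, 2.75 to 4.99 in tissue labelled *Mettl3*-/-, 3.23 and 3.56 in WT organoids and 3.33 to 4.22 in the other 6. These ranges overlap, so "knockout" below means a library labelled *Mettl3*-/-. Of the added factors, *Ascl2* was higher in AKF (36.8 and 38.6 FPKM) and AKFP (19.0 and 19.2) than in the knockout (12.4 and 12.0), and so was *Klf9*, at 11.1 and 10.7 in AKF, 35.97 and 38.4 in AKFP and 7.79 and 7.90 in the knockout. *Fosb* was 25.8 and 26.7 in AKF, 12.4 and 9.77 in AKFP and 38.2 and 25.4 in the knockout, so it overlapped in AKF and was lower in AKFP. *Purb* was 15.9 and 16.8 in AKF, 19.5 and 16.5 in AKFP and 14.3 and 17.1 in the knockout, with overlap between AKFP and each of the others, so AKF and AKFP below are likewise the labelled groups. In bulk RNA, fewer cells of a type and less RNA per cell cannot be told apart.

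Of the 36 nuclear members, 26 had a promoter entry in RefSeq (GRCm38.p6), of which the 250 bases before the start were read. The promoters below are those of the complex II genes that had an entry, *Sdha*, *Sdhb* and *Sdhd*, which fell together in knockout organoids, and of *Uqcrfs1*, the nuclear member that rose there. They lie at chr13:74350241-74350490 (minus strand), chr4:140961021-140961270 (plus), chr9:50603850-50604099 (minus) and chr13:30545317-30545566 (minus). Capitals mark the core of the site of nuclear respiratory factor 1 (NRF1), searched as GCGCA and GCGC with any 1 base between them, and CCGGAAG, a core of ETS family sites, in either direction.
Sdha: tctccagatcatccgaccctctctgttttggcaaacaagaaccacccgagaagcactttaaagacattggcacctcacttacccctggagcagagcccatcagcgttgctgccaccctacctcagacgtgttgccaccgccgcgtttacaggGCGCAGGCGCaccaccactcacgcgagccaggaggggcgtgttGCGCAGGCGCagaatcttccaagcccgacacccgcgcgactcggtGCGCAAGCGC
Sdhb: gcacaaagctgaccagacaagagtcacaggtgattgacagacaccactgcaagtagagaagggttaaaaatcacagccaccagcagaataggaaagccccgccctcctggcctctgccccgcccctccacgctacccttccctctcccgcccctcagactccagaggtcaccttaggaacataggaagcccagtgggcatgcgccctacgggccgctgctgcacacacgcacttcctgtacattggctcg
Sdhd: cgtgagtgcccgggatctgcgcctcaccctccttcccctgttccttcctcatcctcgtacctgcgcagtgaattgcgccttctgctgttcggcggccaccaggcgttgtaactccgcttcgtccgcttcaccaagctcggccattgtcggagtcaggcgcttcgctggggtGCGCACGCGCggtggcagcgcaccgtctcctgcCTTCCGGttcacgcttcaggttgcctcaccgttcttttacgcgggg
Uqcrfs1: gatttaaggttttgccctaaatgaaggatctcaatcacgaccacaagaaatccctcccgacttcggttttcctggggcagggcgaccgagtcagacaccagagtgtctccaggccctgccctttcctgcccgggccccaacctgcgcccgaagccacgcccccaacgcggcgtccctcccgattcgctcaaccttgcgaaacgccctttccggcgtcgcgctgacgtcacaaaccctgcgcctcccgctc

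*Sdha* held 3 matches to the NRF1 core, *Sdhd* held 1 and 1 match to CCGGAAG, and neither *Sdhb* nor *Uqcrfs1* held either. Among the 26 members, 4 (15.38%) held the NRF1 core: *Ndufa5*, *Ndufa8*, *Sdha* and *Sdhd*. The share among all 27025 genes with a promoter was 4.233%. CCGGAAG stood in 2 of 26 (7.692%) and in 7.826% of all genes. With T as the open base, the form most often given for NRF1, it was in 0 of 26 members and in 0.877% of all genes. In the printed promoters no CCGGAAG match overlaps an NRF1 match. These are matches of letters in a window and say nothing of binding.

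Mitochondrial messenger RNAs are cut from long transcripts that start on either strand, and some genes overlap. *mt-Atp8* and *mt-Atp6* share 43 bases at chrM:7927-7969 (plus strand, mm10), shown because a read from there belongs to both genes. Capitals mark the start codon of *mt-Atp6* and the stop codon of *mt-Atp8*.
mt-Atp8 and mt-Atp6: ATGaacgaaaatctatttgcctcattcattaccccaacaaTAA

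Smaller overlaps of 7 bases join *mt-Nd4l* to *mt-Nd4*, 14 bases join *mt-Nd5* to *mt-Nd6* on the opposite strand, and 1 base joins *mt-Atp6* to *mt-Co3*. The deposited values are not stated to keep strand. Of the 13 mitochondrial members, 6 also have a nuclear pseudogene that shares at least 50% of their 31-base words. By the same cut, taken on each gene's longest annotated transcript, 0 of the 36 nuclear members had one. A pseudogene that matches less of that transcript would not be counted, so shared reads in nuclear members were not tested.

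The mitochondrial members were by far the more abundant class. In WT Lgr5-high cells their mean FPKM ran from 1020.5 for *mt-Nd3* to 9215 for *mt-Co1*, the catalytic subunit of complex IV, with a median of 3268. The nuclear members ran from 15.5 for *Ndufb5* to 277 for *Cox4i1*, with a median of 90.8. The lowest mitochondrial member thus exceeded the highest nuclear one in that group. *mt-Co1* was the highest mitochondrial member in all 11 groups. In organoids the order of the nuclear members differed: *Cox4i1* led in WT at 218 FPKM, and *Uqcrfs1*, the Rieske iron-sulfur protein of complex III, led in the knockout at 253. *Cox4i1* varied widely within groups, with 262 and 174 FPKM in WT organoids and 187 and 268 in knockout organoids, so this order does not hold beyond the spread.

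As a share of a library's summed FPKM, the 13 mitochondrial members made up 9.34 and 10.2% in WT Lgr5-high and 13.3 and 11.6% in WT Lgr5-low. Day 3 knockout libraries held 11.8% in the high gate and 13.3% in the low gate. The day 4 values were 5.65 and 9.36% (high) and 10.5 and 12.0% (low), and day 6 gave 4.01 and 8.23%. The low gate held the larger share in WT, at day 3 and at day 4, with no overlap between gates. The day 6 libraries lay below all 4 WT libraries, but the first library of day 6 and the first of day 4 Lgr5-high were far from their replicates.

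The share of the 36 nuclear members was much smaller. It was 0.685 and 0.793% in WT Lgr5-high, 0.899 and 0.917% in WT Lgr5-low, 0.812 and 0.693% in day 4 Lgr5-high, 0.695 and 0.645% in day 4 Lgr5-low and 0.402 and 0.642% at day 6. In WT the low gate was the higher, and at day 4 the order of the gates did not keep: the low gate's second library lay below both high-gate libraries. In organoids the nuclear share was 0.951 and 0.908% in WT, 0.751 and 0.772% in the knockout, 0.739 and 0.713% with AKF and 0.742 and 0.678% with AKFP. All 6 knockout organoid libraries lay below both WT libraries. With 2 libraries a group these shares were not tested, since an exact permutation test could not go below 0.33.

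**Figure D1:**
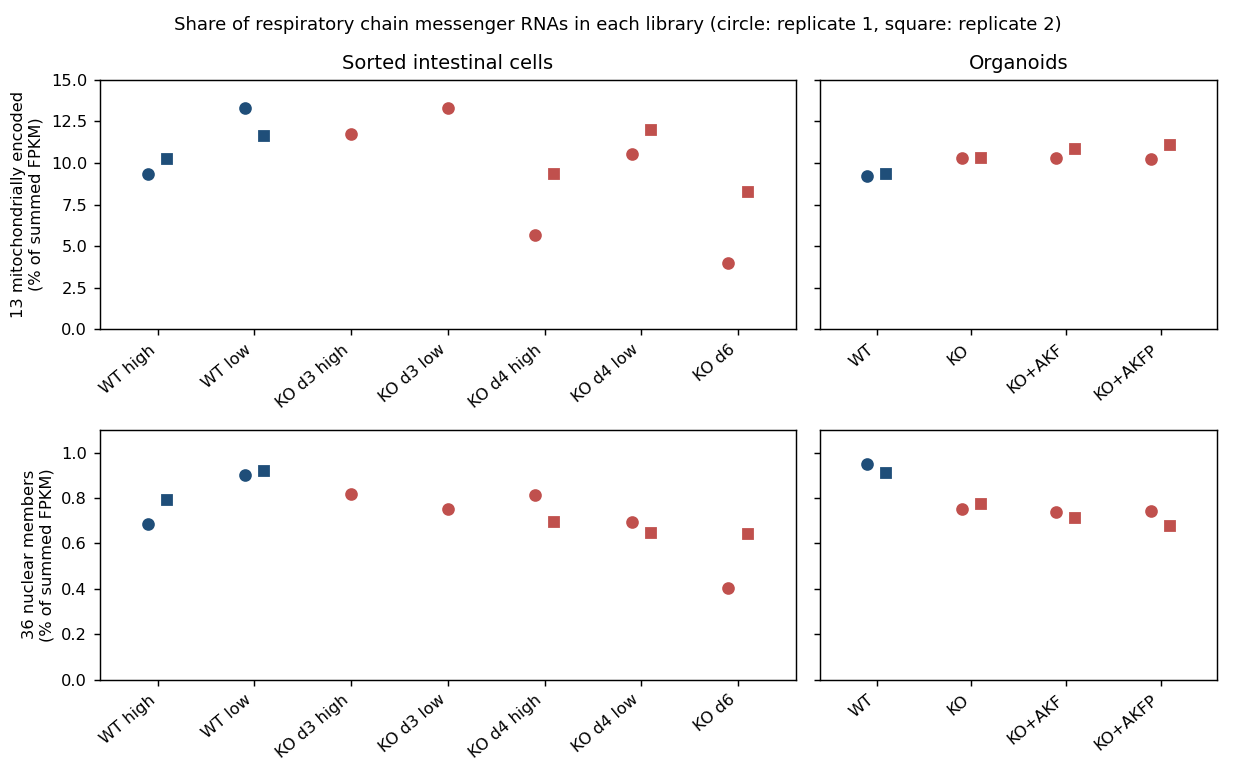
Share of each library's summed FPKM (%) held by the 13 mitochondrially encoded members (upper row) and the 36 nuclear members (lower row), with WT in blue and libraries labelled *Mettl3*-/- in red; each point is 1 library. The WT Lgr5-low points lie above the WT Lgr5-high points in both rows, the first day 4 Lgr5-high and first day 6 libraries have the lowest mitochondrial shares, and the knockout organoids lie below WT in the nuclear row.

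The mitochondrial share of the organoids was 9.19 and 9.32% in WT and 10.3 and 10.3% in the knockout, with 10.3 and 10.8% in AKF and 10.2 and 11.1% in AKFP. Much of that gap lies in 1 gene, *mt-Atp6*: without it the shares were 9.06 and 9.19% in WT, 9.39 and 9.39% in the knockout, 9.36 and 9.94% in AKF and 9.30 and 10.1% in AKFP. The balance of the genomes within a complex can be read without *mt-Atp6*. The geometric mean FPKM of the mitochondrial subunits of complex I was 23.5 and 25.6 times that of the nuclear ones in WT organoids, and between 30.8 and 38.3 times in the other 6. For complex IV the ratio was 44.9 and 49.1 in WT and between 57.6 and 77.0 in the other 6. Neither ratio overlapped between WT and knockout organoids.

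The first day 4 Lgr5-high library and the first day 6 library stood apart from all others. Their summed FPKM was 607817 and 763177, and Paneth markers (*Lyz1*, *Defa24*, *Mmp7*, *Itln1*) summed to 49508 and 95730.3 FPKM, against 19857 to 42326 in the other 10 tissue libraries. Among the mitochondrial members the gap to the replicate was uneven along the genome. At day 4 Lgr5-high, *mt-Nd4l* measured 380.2 and 2343 FPKM, *mt-Nd5* 446 and 1636 and *mt-Atp8* 971 and 3514, in the first and the second library. At day 6 *mt-Nd4l* measured 629 and 2265, *mt-Nd5* 585 and 1607 and *mt-Atp8* 1572 and 3131. The neighbours *mt-Co2* and *mt-Atp6* differed less between the replicates: in day 4 Lgr5-high *mt-Co2* measured 5475 and 4421 and *mt-Atp6* 4416 and 3728. Their part in the results below was not tested, and values without them are given for some of the results.

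**Figure D2:**
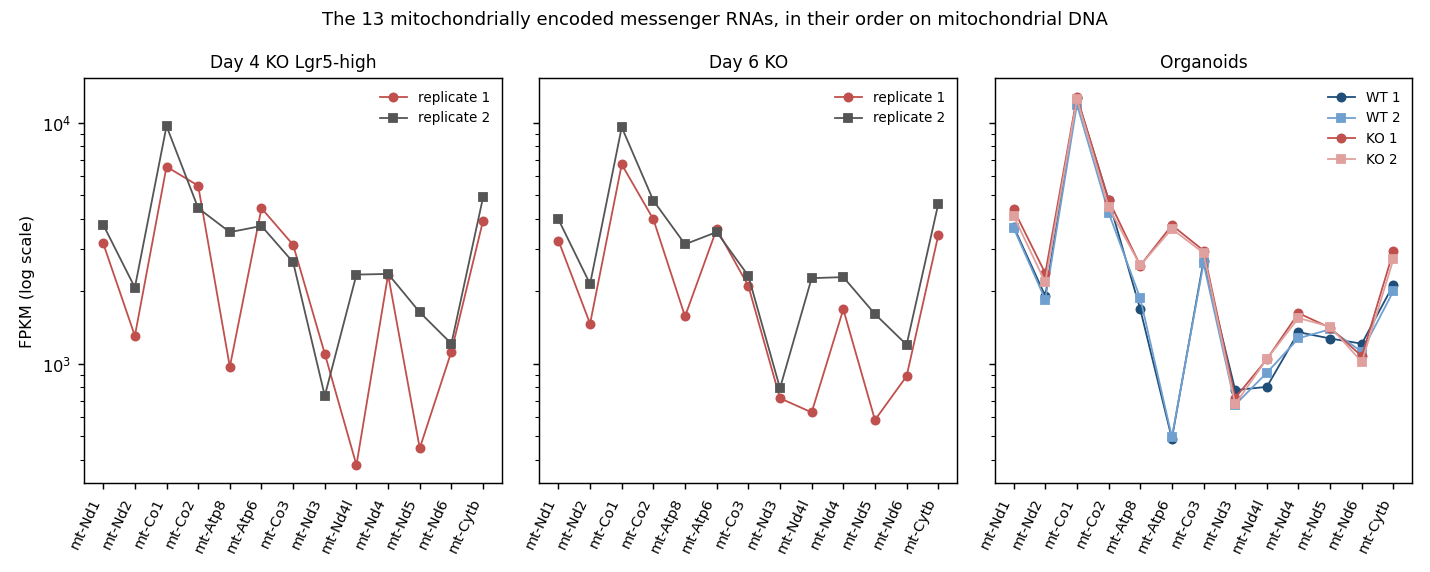
FPKM on a log scale of the 13 mitochondrially encoded members in their order along mitochondrial DNA, in the day 4 knockout Lgr5-high, day 6 knockout, and WT and knockout organoid libraries; each line is 1 library. The first libraries of day 4 Lgr5-high and day 6 drop at *mt-Atp8*, *mt-Nd4l* and *mt-Nd5*, and both WT organoid libraries drop at *mt-Atp6*.

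The member that differed most between WT and knockout organoids was *mt-Atp6* (ENSMUSG00000064357 at chrM:7927-8607), which codes for the proton channel subunit of ATP synthase. It measured 489 and 497 FPKM in the WT organoids and 3755 and 3627 in the knockout, 3827 and 3478 in AKF and 3436 and 3735 in AKFP. The WT organoids are also below all 12 tissue libraries, where it lay between 3518 and 7262. By limma it was 7.47-fold higher in the knockout organoids (log2 difference 2.90, SE 0.10, adjusted p = 5.97e-05). The genes on either side differed less: *mt-Atp8* measured 1685 and 1871 FPKM in WT and 2555 and 2559 in the knockout, and *mt-Co3* 2679 and 2609 in WT and 2948 and 2879 in the knockout.

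*mt-Atp6* has a nuclear pseudogene, *Gm10925* (chr1:24613974-24614651, mm10), that shares 99.5% of its 31-base words, and both values have to be read side by side. *Gm10925* measured 2825 and 2879 FPKM in the WT organoids and 3941 and 3818 in the knockout. Its ratio to *mt-Atp6* was 1.04 to 1.09 in the tissue libraries, 5.78 to 5.79 in the WT organoids and 1.05 to 1.06 in the other 6 organoid libraries. *Gm10925* was 1.36-fold higher in the knockout organoids (limma, log2 difference 0.44, SE 0.10, adjusted p = 0.0205). Reads of the pair cannot be told apart in these values, and how they were divided in each library was not tested. The value of *mt-Atp6* in the WT organoids, and every difference that rests on it, is therefore uncertain. The pseudogenes of *mt-Co2* (*Gm28661*) and *mt-Co3* (*Gm28437*) stayed within 0.99 to 1.03 and 0.99 to 1.02 times their members in all 20 libraries, and *Gm10222* within 0.96 to 1.01 times *mt-Nd4l*. The other copies varied more: *Gm28438* was 0.926 to 1.002 times *mt-Nd3* in tissue and 0.76 to 0.85 times in organoids, and *Gm28439* was 0.27 to 0.60 times *mt-Nd4* in tissue and 0.51 to 0.66 times in organoids. *Gm28439* was called higher in knockout organoids (limma, log2 difference 0.35, adjusted p = 0.0217), where *mt-Nd4* had a log2 difference of 0.27 (adjusted p = 0.0554). Values of *mt-Nd3* and *mt-Nd4* may thus also depend on how reads were divided, which was not tested. Only annotated pseudogenes were searched, so an unannotated copy of *mt-Atp8* or of another member would not have been seen. These pseudogenes were looked up after the values were seen.

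In WT crypts, every member had a lower mean in Lgr5-high than in Lgr5-low cells, but none passed the test. The difference was negative for all 13 mitochondrial and all 36 nuclear members. For 11 of 13 and 34 of 36, both Lgr5-high libraries lay below both Lgr5-low libraries, against 24.3% of all genes tested. The median log2 difference was -0.38 for the mitochondrial and -0.37 for the nuclear members, and 0.10 over all genes. limma called 0.830% of all genes lower, 0.372% higher, and 0 of 49 members. Under the 3 other scalings tried the medians of both classes stayed below 0, between -0.50 and -0.28.

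All 17 nuclear complex I and all 4 complex II members were among those without overlap. Of complex III this held for 5 of 6 nuclear members, and of complex IV for 7 of 8. *Cycs*, cytochrome c, had the smallest p of the nuclear members, with 50.1 and 48.0 FPKM in Lgr5-high and 71.9 and 79.2 in Lgr5-low (log2 difference -0.61, SE 0.18, adjusted p = 0.156 by limma). *mt-Co3*, a core subunit of complex IV, had the smallest p of the mitochondrial ones, with 3285 and 3251 FPKM in Lgr5-high and 5130.3 and 4381 in Lgr5-low (log2 difference -0.54, SE 0.32, adjusted p = 0.50 by limma). Both were lower in both high-gate libraries, and neither passed.

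*mt-Co1* measured 8683 and 9747 FPKM in Lgr5-high and 15714 and 13135 in Lgr5-low, and *Cox5a*, a nuclear subunit of the same complex, 65.6 and 70.8 in Lgr5-high and 102 and 110.0 in Lgr5-low. The log2 differences were -0.64 (adjusted p = 0.552) and -0.63 (adjusted p = 0.318) by limma. *Sdha*, the flavoprotein of complex II, differed least of the nuclear genes followed here in every comparison: 149.6 and 161 against 172 and 181 FPKM, log2 difference -0.18 (adjusted p = 0.765) by limma. The other genes followed in every comparison had log2 differences between -0.19 (*mt-Nd6*) and -0.47 (*Cox4i1*). Outside the members, *Cox7a1*, an isoform of a complex IV subunit best known from muscle, fell in Lgr5-high (log2 difference -2.60, SE 0.38, adjusted p = 0.0208 by limma). Enterocyte markers moved with the gate: 5 of 6 were called lower in Lgr5-high, and their sum was 124 and 183 FPKM against 1431 and 2992. Their part in the members' difference was not tested.

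At day 3 each gate has 1 knockout library, so no test was made. In Lgr5-high, 11 of 13 mitochondrial members lay above both WT libraries of the gate, with a median log2 difference of 0.22. Over all genes, 43.4% lay above both. Of the nuclear members, 17 of 36 lay above both and 7 below both (30.4% of all genes lay below), with a median of 0.09. In Lgr5-low, the classes parted: 7 of 13 mitochondrial members lay above both WT libraries, with a median of 0.17, and 23 of 36 nuclear members lay below both, with a median of -0.23. Over all genes, 31.4% lay below and 41.1% above. *Sdha* had the values 135 FPKM (high) and 129.6 (low), both under all 4 WT libraries, which lay between 149.6 and 181. *mt-Co1* measured 10728 in the high gate, above both WT libraries, and 15571 in the low gate, between them.

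At day 4 the nuclear members of Lgr5-low knockout cells were lower than in WT Lgr5-low cells across all complexes, but again no member passed. In 33 of 36, both knockout libraries lay below both WT libraries, against 24.3% of all genes, and the median log2 difference was -0.43 (0.03 over all genes). This held for all 17 complex I, all 4 complex II and all 8 complex IV members, and for 4 of 6 in complex III. *Uqcrfs1* and *Cycs* lay the other way, with both knockout libraries above both WT libraries (background 29.1%). The mitochondrial members differed less, with a median of -0.11 and 4 of 13 lower without overlap. limma called 0.473% of all genes in either direction and 0 members.

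*Sdhb*, the iron-sulfur subunit of complex II, had the smallest p: 68.8 and 70.03 FPKM in the knockout and 118 and 111 in WT (log2 difference -0.71, SE 0.23, adjusted p = 0.227 by limma). *Sdha* measured 127 and 109 against 172 and 181, log2 difference -0.59 (adjusted p = 0.318) by limma. In both genes the knockout libraries were clear of WT. *Cycs* measured 85.6 and 93.3 against 71.9 and 79.2, log2 difference 0.24 (adjusted p = 0.618) by limma. Among the mitochondrial members *mt-Nd3* had the smallest p (log2 difference -0.46, SE 0.32, adjusted p = 0.598 by limma), and *mt-Co1* measured 11721 and 15863 against 15714 and 13135, which overlap. Markers of other cells were higher in these knockout libraries without overlap, although none was called. Goblet markers summed to 4881 and 7603 FPKM against 4064 and 3324, enteroendocrine markers to 984 and 1437 against 467 and 290.0, immune markers to 219 and 570.3 against 204 and 155, and stromal markers to 10.9 and 23.8 against 3.89 and 4.34. Their part in the members' differences was not tested.

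In Lgr5-high cells at day 4 the nuclear members' direction rested on which library was read. With both, the nuclear members' median log2 difference from WT was 0.15, and it was -0.14 without the first knockout library. The mitochondrial median was -0.26 with both. It was -0.14 without that library. No member passed, while limma called 0.729% of all genes higher and 0.326% lower. *Uqcrfs1* had the smallest p of the nuclear members, at 221 and 189.8 FPKM against 133 and 146 (log2 difference 0.55, SE 0.19, adjusted p = 0.200 by limma). *Cycs* measured 74.6 and 62.1 against 50.1 and 48.0 and *Sdha* 97.0 and 109.9 against 149.6 and 161, both without overlap and in opposite directions. Their log2 differences were 0.47 (adjusted p = 0.232) and -0.58 (adjusted p = 0.245) by limma. *mt-Atp8* had the smallest p of the mitochondrial members (log2 difference -1.01, SE 0.58, adjusted p = 0.413 by limma), with 971 and 3514 FPKM against 3775 and 3659.6. Without the second knockout library, some nuclear members were called higher and a mitochondrial one lower, in a fit that leaves the first alone in its group. The share of all genes called there is not given, so this is not read as a result about the members. With sums of FPKM made equal without the genes of mitochondrial DNA the nuclear median was -0.03. Stem cell markers summed to 1461 and 1916 FPKM against 2945 and 3153 in WT, goblet markers to 2771 and 3695 against 1107 and 771, enteroendocrine markers to 540.0 and 1040.5 against 153 and 58.9, and immune markers to 439.6 and 555 against 283 and 201. limma called 1 of 5 goblet and 2 of 4 enteroendocrine markers higher and 0 of 4 stem cell markers. Their part in the members' differences was not tested.

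Between the gates of the day 4 knockout, all 13 mitochondrial members again had the lower mean in Lgr5-high, 11 of them without overlap, with a median log2 difference of -0.54. The background for a lower value without overlap was 17.2% of genes. The nuclear median was 0.21, and -0.10 without the first Lgr5-high library. limma called 0% of genes and 0 members here, with 2417 genes and 0 members at an unadjusted p under 0.05. The smallest p were those of *mt-Nd2*, log2 difference -0.73 (adjusted p = 0.279), and *Cycs*, -0.39 (adjusted p = 0.282). The change with knockout was also compared between the gates directly. Of the nuclear members, all 36 had the more positive knockout difference in the high gate, with a median of 0.56 on the log2 scale, and 0 of 49 members passed by limma, where 0.0155% of all genes did. The smallest p were those of *Ndufb10*, log2 difference 0.94 (adjusted p = 0.963), and *mt-Nd4l*, -1.41 (adjusted p = 0.963). Without the second Lgr5-high library, some nuclear members were called higher and some mitochondrial ones lower between the gates. That fit leaves the first alone in its group, and its share of all genes called is not given. Without the first Lgr5-high library the nuclear median of the difference between the gates' changes was 0.24.

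At day 6 complex II stood out: *Sdha*, *Sdhb* and *Sdhc* fell against WT Lgr5-low cells, and *Sdha* and *Sdhc* also against WT Lgr5-high cells. *Cycs* and *Uqcrfs1* rose against WT Lgr5-high cells. The labels name no gate for day 6, while the column header of its first library names a low gate and that of the second names none. Both WT gates were used as the reference, a difference from Lgr5-high cannot be told apart from a difference of gate, and both comparisons share the day 6 libraries. Against Lgr5-low, limma called 0 of 36 nuclear members higher and 5 lower, with 6.22% and 5.25% of all genes. Against Lgr5-high it called 2 of 36 higher and 2 lower, with 10.1% and 11.9% of all genes. Against Lgr5-high the nuclear counts are small and not far from the shares of all genes, so they are not read as a result about the members. Of the 13 mitochondrial members it called 0 in either comparison.

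The 4 complex II genes code for an enzyme of 2 catalytic and 2 membrane subunits. *Sdha*, the flavoprotein, measured 69.7 and 106 FPKM at day 6, 149.6 and 161 in WT Lgr5-high and 172 and 181 in WT Lgr5-low. It fell against both (log2 difference -0.85, SE 0.23, adjusted p = 0.0329 against the high gate, and log2 difference -1.03, SE 0.23, adjusted p = 0.0252 against the low gate, by limma). *Sdhb* measured 46.3 and 51.1 at day 6, 74.5 and 68.2 in the high gate and 118 and 111 in the low gate. It fell against the low gate (log2 difference -1.21, SE 0.23, adjusted p = 0.0128 by limma), a fold of 2.32. Against the high gate, also without overlap, it did not pass (adjusted p = 0.123 by limma).

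*Sdhc*, a membrane anchor, measured 34.8 and 41.0 FPKM, against 57.7 and 62.7 in the WT high gate and 72.3 and 73.2 in the low gate. It fell against both (log2 difference -0.66, SE 0.18, adjusted p = 0.0328 against the high gate, and log2 difference -0.93, SE 0.18, adjusted p = 0.0142 against the low gate, by limma). *Sdhd*, the other anchor, measured 150.3 and 196 at day 6, 182 and 191 in the high gate and 242 and 251 in the low gate. It lay below the low gate without passing and overlapped the high gate (limma adjusted p = 0.138 and 0.697).

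Outside complex II, *Ndufb10*, an accessory subunit of complex I, measured 41.3 and 47.2 FPKM at day 6 and 96.1 and 127 in WT Lgr5-low (log2 difference -1.31, SE 0.29, adjusted p = 0.0242 by limma). *Uqcrc2*, a core protein of complex III, measured 78.6 and 109 against 168 and 170.2 (log2 difference -0.86, SE 0.21, adjusted p = 0.0312 by limma). Both were clear of the WT values. *Cycs* measured 80.1 and 79.9 at day 6, above 50.1 and 48.0 in WT Lgr5-high (log2 difference 0.69, SE 0.18, adjusted p = 0.0259 by limma). *Uqcrfs1* measured 209 and 242, above 133 and 146 (log2 difference 0.69, SE 0.19, adjusted p = 0.0363 by limma). Against WT Lgr5-low, where both genes were higher than in Lgr5-high, the log2 differences were 0.08 (adjusted p = 0.815) and 0.12 (adjusted p = 0.754) by limma.

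The mitochondrial members had lower means at day 6 throughout, without passing. Their share was 4.01% in the first day 6 library and 8.23% in the second, against 9.34 and 10.2% in WT Lgr5-high. *mt-Nd1*, *mt-Nd4*, *mt-Nd4l*, *mt-Nd5* and *mt-Co1* overlapped WT Lgr5-high, and medians without the first library are not given here. Against WT Lgr5-low 12 of 13, and 32 of 36 nuclear members, were lower without overlap (background 32.8%), with median log2 differences of -0.84 and -0.55. *mt-Co3* had the smallest p, at 2102 and 2316 FPKM against 5130.3 and 4381 (log2 difference -1.10, SE 0.32, adjusted p = 0.0585 by limma). Against WT Lgr5-high 8 of 13 and 22 of 36 were lower without overlap (background 41.7%), with medians of -0.45 and -0.21. *mt-Nd6*, the only messenger RNA of the other strand, had the smallest p of the mitochondrial members there, with 888 and 1199 FPKM against 1735 and 1450.2 (log2 difference -0.62, adjusted p = 0.129 by limma).

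None of these calls passed under all 13 other settings tried. *Sdha* against the high gate and *Uqcrc2* against the low gate passed under 4, the fewest. *Sdhb* and *Sdhc* against the low gate passed under 9, the most. Scaling the libraries to equal sums of FPKM moved the median of all genes from -0.16 to -0.46 against the high gate and from -0.08 to -0.29 against the low gate, and left 0 and 3 members called. On that scale the nuclear medians were -0.59 and -0.84, and the mitochondrial ones -0.83 and -1.14. Without the first day 6 library, or without either WT library of the gate, no member was called in either comparison. Some were called without the second day 6 library or without both libraries that stand apart. Each of these fits leaves 1 library in a group. The share of all genes called under these settings is not given, so they show only how the members' calls moved. Enterocyte markers also stood higher at day 6 than in WT Lgr5-high (5 of 6 called higher, sum 2913 and 2956 FPKM), as did 4 of 5 goblet markers, and 4 of 4 stem cell markers fell. Against WT Lgr5-low, 0 of 6 enterocyte and 0 of 4 stem cell markers were called, and 1 of 4 Paneth markers was higher.

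From day 4 to day 6 of the knockout no member passed. Against day 4 Lgr5-low all 13 mitochondrial members were lower at day 6 without overlap (background 20.3%), with a median log2 difference of -0.70, and the nuclear median was -0.14. limma called 0.0543% of all genes. *mt-Nd4* had the smallest mitochondrial p, log2 difference -0.70 (adjusted p = 0.583), and *Sdhb* the smallest nuclear one, -0.50 (adjusted p = 0.619). Against day 4 Lgr5-high, where limma called 1.98% of genes higher and 1.23% lower, the medians were -0.15 (mitochondrial) and -0.34 (nuclear), beside -0.14 over all genes. The mitochondrial one was 0.01 with median-of-ratios scaling. *Ndufs8* and *mt-Co3* had the smallest p there, log2 difference -0.76 (adjusted p = 0.160) and -0.38 (adjusted p = 0.505). Without the second day 4 Lgr5-high library, nuclear members were called lower, in a fit that leaves the first alone in its group. The share of all genes called there is not given, so this is not read as a result about the members.

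**Figure D3:**
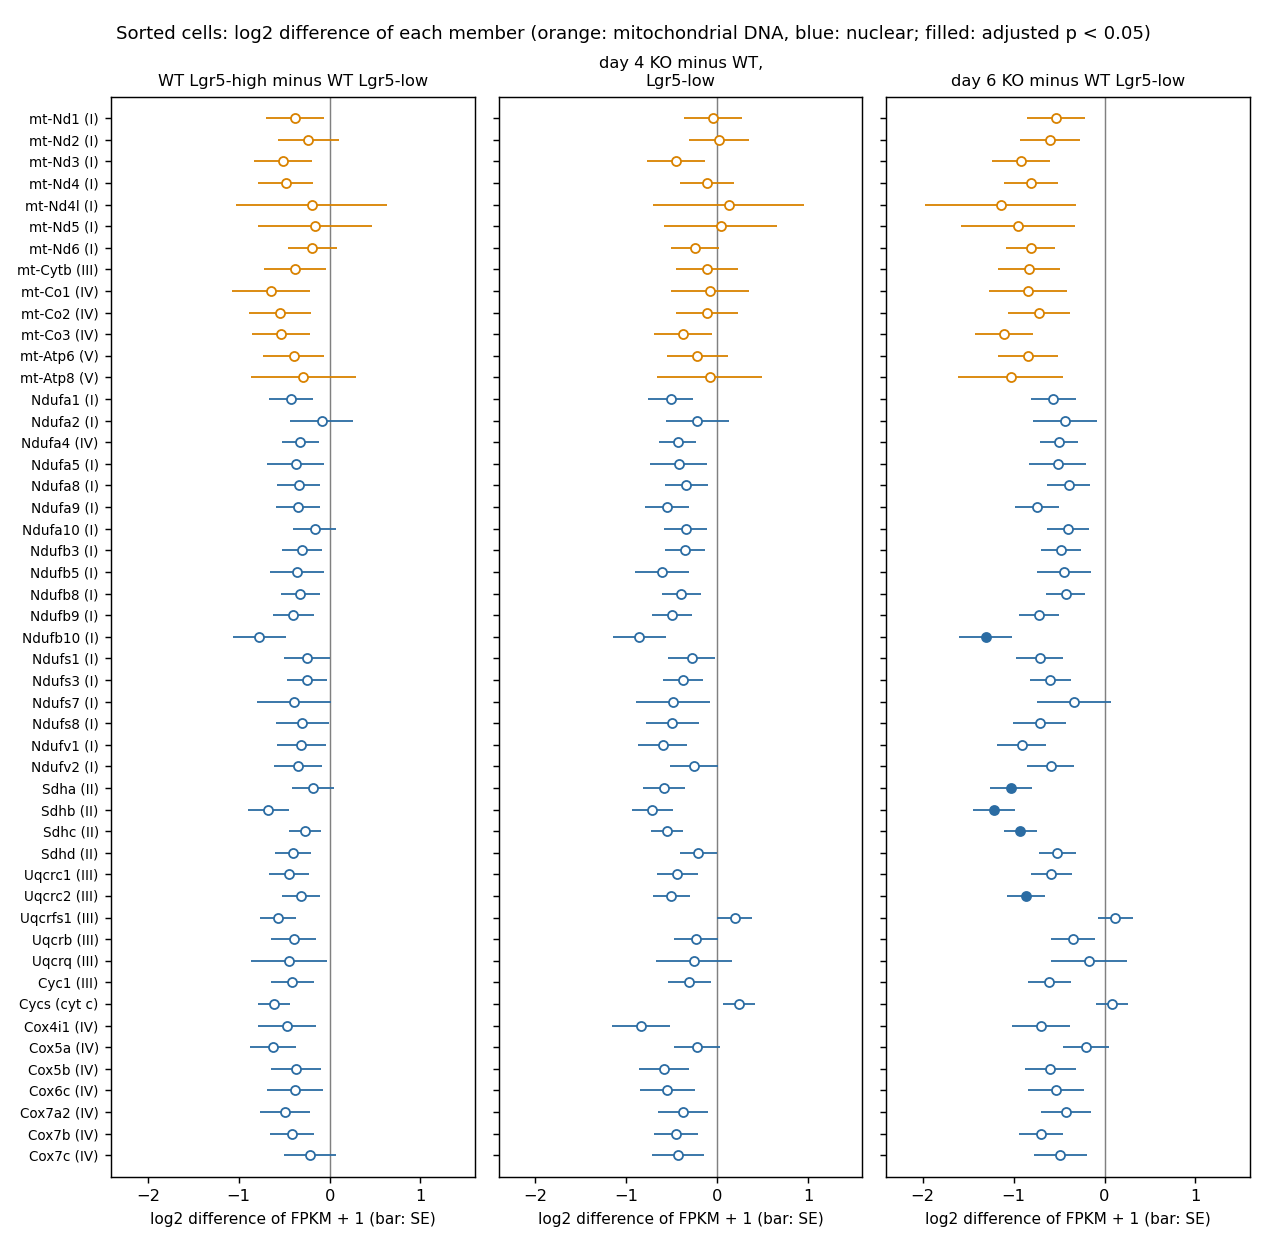
Log2 difference of FPKM + 1 for each of the 49 members in 3 comparisons of sorted cells (points: limma estimate; bars: SE; orange: mitochondrial DNA; blue: nuclear; filled: adjusted p under 0.05). All points of WT Lgr5-high minus Lgr5-low lie left of 0, and the 5 filled points at day 6 are *Ndufb10*, *Sdha*, *Sdhb*, *Sdhc* and *Uqcrc2*.

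In organoids 14 of 36 nuclear members fell in the knockout, all 4 complex II genes among them, and 3 of 13 mitochondrial members rose, of which *mt-Atp6* is uncertain as said above. By limma 1 nuclear member rose and 0 mitochondrial members fell. Of all genes 11.5% were called lower and 16.7% higher, so the mitochondrial count lies near the background. Of the nuclear members that fell, 6 of 17 were in complex I, 3 of 6 in complex III and 1 of 8 in complex IV. The median log2 difference was -0.26 for the nuclear and 0.20 for the mitochondrial members, and 0.01 over all genes. Both knockout libraries lay below both WT libraries for 27 of 36 nuclear members (background 31.3%), and above them for 9 of 13 mitochondrial ones (background 36.6%).

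All 4 complex II genes changed. By id and rounded position (mm10) they are *Sdha* (ENSMUSG00000021577, near chr13:74322300-74350300), *Sdhb* (ENSMUSG00000009863, near chr4:140961000-140979000), *Sdhc* (ENSMUSG00000058076, near chr1:171127000-171151000) and *Sdhd* (ENSMUSG00000000171, near chr9:50596400-50603800). Because of the rounding these do not give the starts before which the promoters above were read. *Sdha* measured 143 and 147 FPKM in WT and 85.1 and 89.8 in the knockout, and fell by a fold of 1.65 (log2 difference -0.72, SE 0.077, adjusted p = 0.00132 by limma). *Sdhb* measured 101 and 93.9 in WT and 73.7 and 75.9 in the knockout (log2 difference -0.38, SE 0.071, adjusted p = 0.00964 by limma). *Sdhc* measured 77.4 and 77.0 in WT and 56.5 and 58.8 in the knockout (log2 difference -0.41, SE 0.062, adjusted p = 0.00434 by limma). In each of these the knockout libraries lay well below WT and close to each other. *Sdhd* measured 198 and 201 in WT and 162 and 164 in the knockout, log2 difference -0.29 (adjusted p = 0.0211) by limma. The promoters of *Sdha* and *Sdhd* shown above hold the NRF1 core and that of *Sdhb* does not.

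In complex I, which takes electrons from NADH, *Ndufv2*, an iron-sulfur subunit of the NADH-binding arm, measured 62.6 and 64.0 FPKM in WT and 44.8 and 44.0 in the knockout (log2 difference -0.50, SE 0.068, adjusted p = 0.00295 by limma). *Ndufv1*, the subunit that binds NADH, and *Ndufs1*, the largest iron-sulfur subunit, fell by smaller amounts, with log2 differences of -0.33 (adjusted p = 0.0174) and -0.25 (adjusted p = 0.0277) by limma. *Ndufs8*, *Ndufa9* and *Ndufb9* also fell, with log2 differences of -0.30, -0.30 and -0.36. *Ndufb10* did not pass, with 56.7 and 53.8 in WT and 56.8 and 39.3 in the knockout, which overlap. The mitochondrial complex I subunits did not pass: *mt-Nd1* measured 3704 and 3657 in WT and 4364 and 4103 in the knockout, log2 difference 0.20 (adjusted p = 0.192) by limma. *mt-Nd6* measured 1212 and 1121 in WT and 1074 and 1017 in the knockout, log2 difference -0.16 (adjusted p = 0.210) by limma. Of the 7, 5 were higher without overlap and 1, *mt-Nd6*, lower.

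Complex III split. *Uqcrfs1* rose from 186 and 181 FPKM to 252 and 254 (log2 difference 0.46, SE 0.066, adjusted p = 0.00348 by limma), the only nuclear member called higher. *Uqcrc2* fell from 149 and 145 to 112 and 110.5 (log2 difference -0.40, SE 0.067, adjusted p = 0.00639 by limma). *Uqcrc1*, the other core protein, and *Cyc1*, cytochrome c1, fell with log2 differences of -0.27 (adjusted p = 0.0255) and -0.32 (adjusted p = 0.0125) by limma. The mitochondrial subunit *mt-Cytb*, cytochrome b, rose from 2128 and 2004 to 2933 and 2715 (log2 difference 0.45, SE 0.10, adjusted p = 0.0196 by limma). Of the 7 complex III subunits, the Rieske protein and cytochrome b thus rose and 3 others fell.

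In complex IV and cytochrome c most values did not pass. *Ndufa4*, first assigned to complex I and now placed in complex IV, fell from 93.6 and 89.7 FPKM to 60.9 and 60.7 (log2 difference -0.58, SE 0.10, adjusted p = 0.00596 by limma). *Cox5a* measured 77.1 and 74.5 in WT and 68.5 and 74.0 in the knockout, log2 difference -0.09 (adjusted p = 0.368) by limma. *Cycs* measured 46.3 and 41.6 in WT and 46.5 and 45.1 in the knockout, log2 difference 0.06 (adjusted p = 0.641) by limma. Neither passed. The groups overlap in *Cycs*, and in *Cox5a* both knockout libraries lay below both WT libraries. *mt-Co1* measured 12648 and 11890.3 in WT and 12792 and 12567 in the knockout, log2 difference 0.05 (adjusted p = 0.799) by limma. *Cox4i1*, whose libraries overlap widely, had a log2 difference of 0.06 (adjusted p = 0.891) by limma. Of complex V, *mt-Atp8* rose (log2 difference 0.53, SE 0.10, adjusted p = 0.00924 by limma) beside *mt-Atp6*, with which it shares the printed bases. Its value may therefore also depend on how reads were divided, which was not tested.

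*Sdha*, *Sdhc*, *Ndufv2*, *Ndufa4*, *Uqcrc2*, *Uqcrfs1* and *mt-Atp6* passed under each of the 12 other settings tried, leaving out any 1 WT or knockout library included. Fewer than the 18 members were called when any 1 WT or knockout library was left out, in fits that leave 1 library in a group. The share of all genes called in those fits is not given, so this shows only how the members' calls moved. Among the 7 genes the highest adjusted p by limma was 0.0463 (*Uqcrc2*). *mt-Cytb* did not pass when any 1 of the 4 libraries was left out, with adjusted p by limma up to 0.235, and *mt-Atp8* did not without either knockout library, with adjusted p up to 0.121. Enterocyte markers were lower in the knockout organoids (4 of 6 called, sum 1329 and 1364 FPKM against 2659 and 2499.8), 3 of 4 stem cell markers were lower, and 5 of 5 goblet, 2 of 4 Paneth and 3 of 4 enteroendocrine markers higher. Their part in the members' changes was not tested. Of the members called, *Sdhb*, *Sdhd*, *Ndufv1*, *Ndufs8*, *Ndufa9*, *Ndufb9* and *Cyc1* were not followed gene by gene through the settings. How far their calls held is therefore not given.

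**Figure D4:**
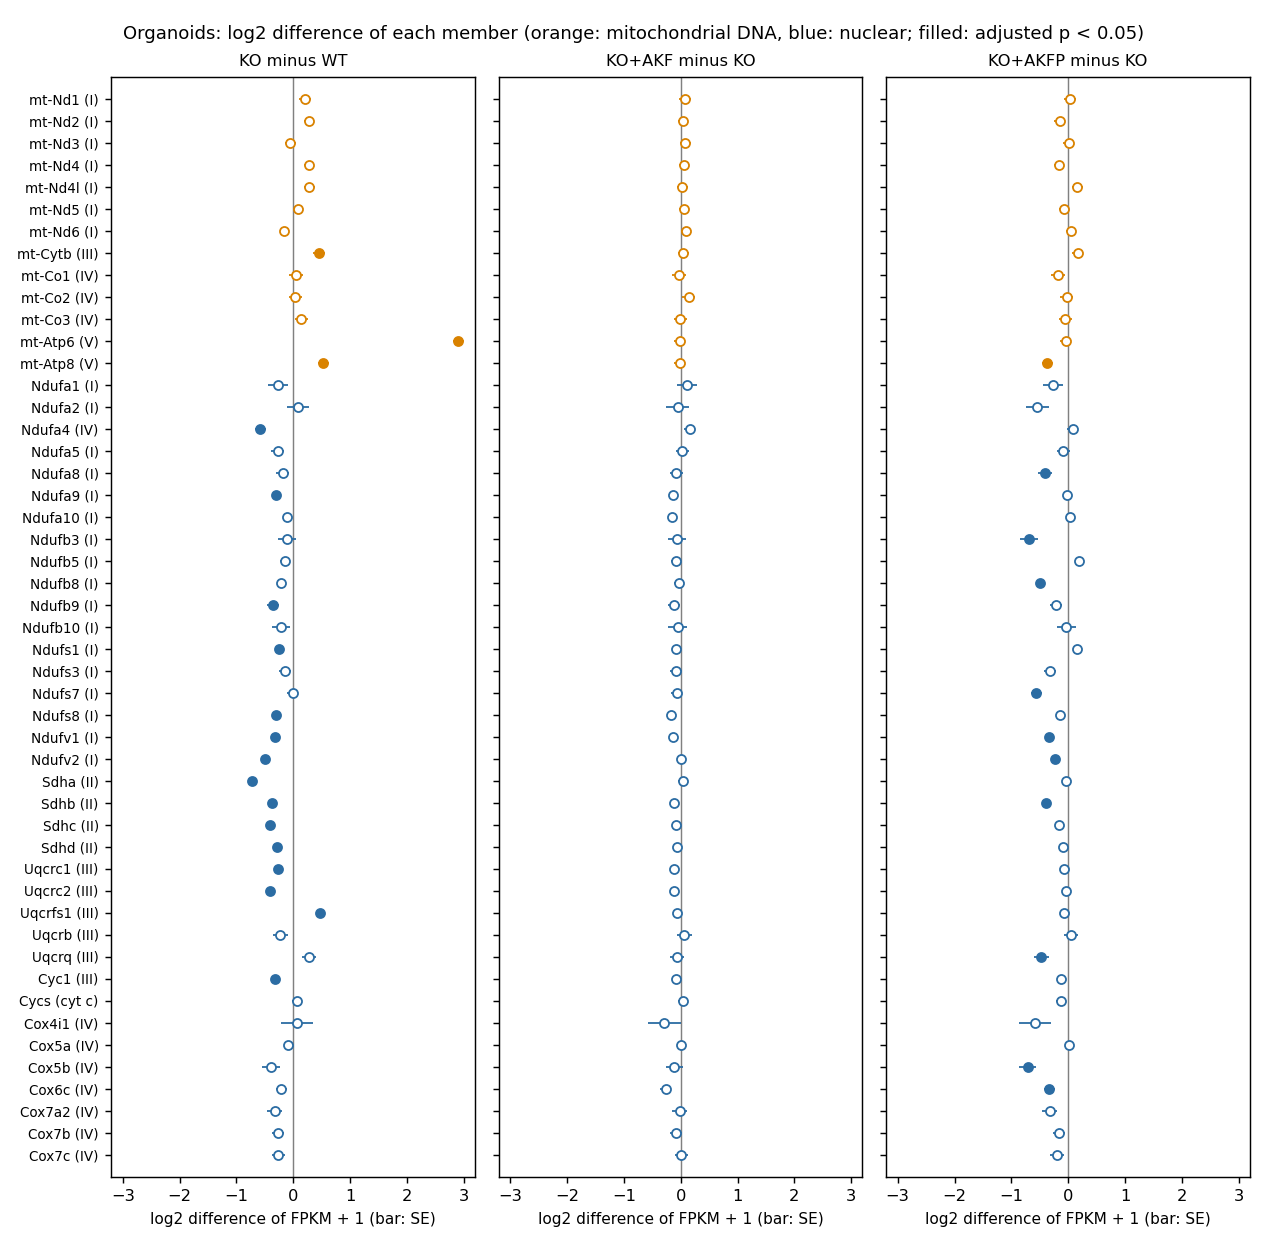
Log2 difference of FPKM + 1 for each of the 49 members between organoid groups (points: limma estimate; bars: SE; orange: mitochondrial DNA; blue: nuclear; filled: adjusted p under 0.05). In knockout minus WT all 4 *Sdh* genes are filled and left of 0, *Uqcrfs1* is filled on the right and *mt-Atp6* stands far right; AKF minus knockout has no filled point, and AKFP minus knockout has 11, all left of 0.

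No member passed the test between AKF and knockout organoids. limma called 0 members and 0.0474% of all genes. The medians were 0.05 (mitochondrial) and -0.07 (nuclear). The smallest p were those of *Cox6c* (log2 difference -0.27, SE 0.10, adjusted p = 1 by limma) and *mt-Co2* (log2 difference 0.14, SE 0.11, adjusted p = 1 by limma). *Sdha* measured 88.8 and 90.7 FPKM in AKF, against 85.1 and 89.8 in the knockout, and *Uqcrfs1* 249.7 and 235 against 252 and 254. The log2 difference of *Sdha* was 0.04 with an SE of 0.077.

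In AKFP 10 nuclear members fell against the knockout, led by subunits of complex I. limma called 10 of 36 nuclear members lower and 0 higher, and 1 of 13 mitochondrial members lower, against 13.2% of all genes lower and 13.2% higher. Of complex I 6 of 17 fell, of complex IV 2 of 8, and of complexes II and III 1 each. *Ndufb8*, an accessory subunit of complex I, measured 27.7 and 25.6 FPKM in the knockout and 19.1 and 18.1 in AKFP (log2 difference -0.50, SE 0.077, adjusted p = 0.00708 by limma). *Ndufs7*, an iron-sulfur subunit of the same complex, measured 72.0 and 65.6 in the knockout and 44.6 and 48.1 in AKFP (log2 difference -0.56, SE 0.10, adjusted p = 0.00999 by limma). Neither had been called between knockout and WT, where *Ndufb8* measured 32.3 and 29.7 and *Ndufs7* 73.2 and 65.6 in WT.

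*Sdhb* fell again, from 73.7 and 75.9 FPKM to 55.9 and 57.1 (log2 difference -0.40, SE 0.071, adjusted p = 0.0106 by limma), while *Sdha*, at 90.4 and 80.2, did not pass (log2 difference -0.04, adjusted p = 0.732 by limma). *Cox5b*, a nuclear subunit of complex IV, measured 65.4 and 65.1 in the knockout and 46.8 and 33.2 in AKFP (log2 difference -0.71, SE 0.16, adjusted p = 0.0196 by limma), with AKFP libraries that differ from each other but both lie below. *Ndufv1* also fell, log2 difference -0.34 (adjusted p = 0.0185), as did *Ndufb3*, *Uqcrq*, *Ndufa8*, *Ndufv2* and *Cox6c*, with log2 differences between -0.69 and -0.23. *mt-Atp8* fell from 2555 and 2559 to 2010.3 and 1948 (log2 difference -0.37, SE 0.10, adjusted p = 0.0334 by limma). Of the genes followed throughout, *mt-Co1* measured 10608 and 11735 and *mt-Cytb* 3052 and 3280.2, with adjusted p of 0.290 and 0.263 by limma. *Cycs* measured 44.2 and 39.7, *Cox5a* 73.0 and 71.0 and *Uqcrfs1* 239 and 243, and none of these passed.

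Part of these calls depended on the scale. Scaling to equal sums of FPKM moved the median of all genes from 0.04 to 0.15 and the calls to 1 mitochondrial member higher, 2 nuclear members higher and 6 lower. The nuclear median was -0.16 as reported and -0.04 on that scale. The mitochondrial median was -0.04 as reported and 0.09 on that scale. Fewer than the 11 members were called when any 1 knockout or AKFP library was left out, in fits that leave 1 library in a group. The share of all genes called under these settings is not given, so they show only how the members' calls moved. Against AKF, whose label differs by *Purb* alone but which by the values above differed from AKFP in *Ascl2*, *Klf9* and *Fosb* and not clearly in *Purb*, limma called 6 nuclear members lower and 2 higher and 1 mitochondrial member lower, against 12.7% and 12.8% of all genes. The smallest p were those of *Ndufb8*, *Ndufs7*, *Sdhb* and *Ndufb3*, with log2 differences -0.46 (adjusted p = 0.00923), -0.49 (adjusted p = 0.0150), -0.28 (adjusted p = 0.0290) and -0.62 (adjusted p = 0.0305) by limma. *Cox5b*, *Ndufv2* and *mt-Atp8* also fell. *Ndufs1* and *Ndufb5* rose, log2 differences 0.24 (adjusted p = 0.0351) and 0.28 (adjusted p = 0.0432) by limma. Fewer than these 9 members were called when any 1 AKF or AKFP library was left out, in fits that leave 1 library in a group. The share of all genes called in those fits is not given either. With equal sums of FPKM 4 nuclear members were called higher and 4 lower, and the nuclear median was 0.03 in place of -0.09. The comparisons with the knockout and with AKF share the AKFP libraries.

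Set against WT, both factor groups had low complex II genes. AKF had 18 of 36 nuclear members lower and 1 higher, and 6 of 13 mitochondrial members higher, against 12.7% and 17.6% of all genes. Of those mitochondrial members, *mt-Atp6* and *mt-Atp8* may depend on how reads were divided. *mt-Nd2* and *mt-Nd4* each passed under only 3 of 12 other settings. AKFP had 25 of 36 lower and 1 higher, and 3 of 13 mitochondrial members higher, the uncertain *mt-Atp6* among them, against 18.8% and 24.6%. All 4 complex II genes fell in both. In AKFP, 12 of 17 nuclear members of complex I and 6 of 8 of complex IV fell too. Fewer than the 25 members called in AKF were called when any 1 WT or AKF library was left out. Those fits leave 1 library in a group, and their share of all genes called is not given. The nuclear member called higher was *Uqcrfs1* in both, log2 difference 0.40 (adjusted p = 0.00523) and 0.39 (adjusted p = 0.00377) by limma. The median log2 differences of the nuclear members were -0.30 and -0.46, and of the mitochondrial ones 0.28 and 0.11. The 3 comparisons with WT share the WT libraries. Enterocyte markers summed to 1884 and 1123 FPKM in AKF and 654 and 671 in AKFP, against 2659 and 2499.8 in WT (4 and 6 of 6 called lower). Goblet markers summed to 2360.1 and 2123 in AKF and 1954 and 1871 in AKFP, against 1032 and 790.2 (5 of 5 called higher in both). Their part in the members' differences was not tested.

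In AKF the nuclear members with the smallest p among those lower were, by log2 difference, *Sdha* -0.69, *Sdhc* -0.49, *Uqcrc2* -0.52, *Ndufv2* -0.50 and *Sdhb* -0.49. In AKFP they were *Sdhb* -0.78, *Ndufv2* -0.73, *Sdha* -0.76, *Sdhc* -0.58 and *Ndufv1* -0.66. The mitochondrial members higher in AKF, beside *mt-Atp6*, were *mt-Atp8* 0.51, *mt-Cytb* 0.50, *mt-Nd4* 0.32, *mt-Nd2* 0.32 and *mt-Nd4l* 0.32, and in AKFP *mt-Cytb* 0.62 and *mt-Nd4l* 0.44. *mt-Cytb* measured 2790.2 and 3048 FPKM in AKF and 3052 and 3280.2 in AKFP, above 2128 and 2004 in WT, and was called higher in all 3 comparisons with WT. *Cox5a* measured 72.8 and 69.9 in AKF and 73.0 and 71.0 in AKFP, against 77.1 and 74.5 in WT. It lay below WT in each library and was called in none of the comparisons with WT.

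**Figure D5:**
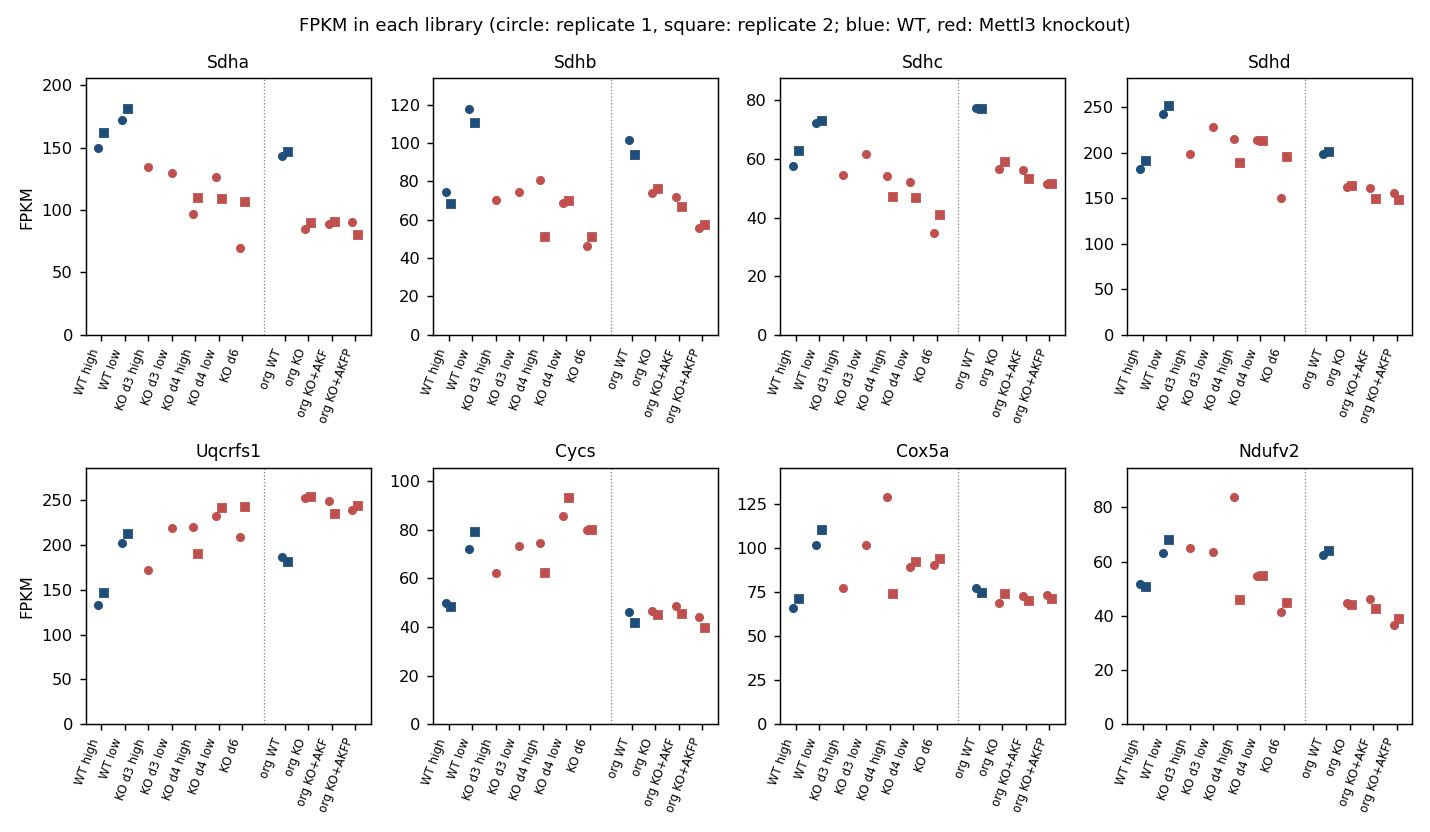
FPKM of 8 nuclear members in each library, from 0 (circle: replicate 1; square: replicate 2; blue: WT; red: labelled *Mettl3*-/-; the dotted line parts tissue from organoids). *Sdha* and *Sdhc* lie below WT in the day 6 and the knockout organoid libraries, *Uqcrfs1* lies above WT in all knockout organoids, *Cycs* overlaps between WT and knockout organoids, and *Cox5a* lies slightly below WT in all 6 without being called.

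The rest of the pathway was read from lists of genes that are no members. In knockout organoids, where 16.7% of all genes were called higher and 11.5% lower, of the other complex I subunits 2 of 19 fell and 0 rose (median log2 difference -0.21), a share near that of all genes. Of the nuclear ATP synthase subunits 5 of 16 fell and 0 rose (median -0.31). Of the ATP synthase subunits the smallest p was that of *Atp5o*, of the stalk (log2 difference -0.47, SE 0.080, adjusted p = 0.00663 by limma). Of the citric acid cycle genes 6 of 19 fell and 1 rose, led by *Idh3g*, a subunit of isocitrate dehydrogenase (log2 difference -0.42, SE 0.058, adjusted p = 0.00312 by limma). Among the genes that build and express the chain more rose than fell. Of the assembly factors 10 of 29 rose and 1 fell, of the mitochondrial ribosomal proteins 30 of 76 rose and 5 fell, and of the genes that express mitochondrial DNA 7 of 29 rose and 0 fell.

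In these lists the smallest p were those of *Ndufaf4*, a complex I assembly factor (log2 difference 0.99, SE 0.12, adjusted p = 0.00184 by limma), *Mrpl43* of the large mitochondrial ribosomal subunit (log2 difference 1.28, SE 0.058, adjusted p = 1.90e-04 by limma) and *Tefm*, the elongation factor of mitochondrial transcription (log2 difference 1.01, SE 0.086, adjusted p = 6.74e-04 by limma). Of the import genes 7 of 20 rose and 1 fell, and of the mitochondrial chaperone, protease and stress genes 5 of 15 rose and 1 fell. The glycolysis list was mixed, with 4 of 20 higher and 6 lower, and *Slc2a1*, the glucose transporter GLUT1, rose (log2 difference 0.58, SE 0.059, adjusted p = 0.00120 by limma). Of the biogenesis regulators 1 of 12 rose and 1 fell, the latter being *Esrrg*, a nuclear receptor that activates respiratory genes (log2 difference -0.58, SE 0.11, adjusted p = 0.00863 by limma).

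At day 6, against WT Lgr5-low, the lists held fewer calls, with backgrounds of 6.22% higher and 5.25% lower. Of the citric acid cycle genes 5 of 19 fell and 0 rose, again with *Idh3g* (log2 difference -1.04, SE 0.18, adjusted p = 0.0100 by limma) first. Of the mitochondrial ribosomal proteins 5 of 76 rose and 0 fell, with *Mrpl43* (log2 difference 1.74, SE 0.31, adjusted p = 0.00996 by limma) first. *Ndufaf4* (log2 difference 1.46, SE 0.23, adjusted p = 0.00691 by limma) was first of the 2 assembly factors of 28 that rose. Of the glycolysis list 4 of 21 rose and 2 fell. *Pdk2*, a kinase that switches off pyruvate dehydrogenase, had the smallest p there and fell (log2 difference -1.86, SE 0.19, adjusted p = 0.00195 by limma). *Gdf15*, a secreted stress hormone, rose (log2 difference 2.41, SE 0.37, adjusted p = 0.00580 by limma). Against WT Lgr5-high, 4 of 29 genes that express mitochondrial DNA fell and 0 rose, near the background of 11.9% lower, with *Twnk*, the replicative helicase, first (log2 difference -1.53, SE 0.28, adjusted p = 0.00760 by limma). At day 4, with backgrounds of 0.729% higher and 0.326% lower, 2 of 76 ribosomal proteins rose in Lgr5-high (*Mrpl16* first, log2 difference 1.29, SE 0.19, adjusted p = 0.0256 by limma), and 0 in any of these pathway lists passed in Lgr5-low.

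Between AKFP and knockout organoids, 4 of 19 other complex I subunits and 2 of 8 other subunits of complexes III and IV fell and 0 rose. Their smallest p were those of *Ndufv3*, an accessory subunit (log2 difference -0.67, SE 0.12, adjusted p = 0.00989 by limma), and *Cox7a1* (log2 difference -1.06, SE 0.25, adjusted p = 0.0243 by limma). Of the mitochondrial ribosomal proteins 4 of 76 rose and 12 fell. The background was 13.2% higher and 13.2% lower. Of the genes that express mitochondrial DNA 5 of 29 rose and 0 fell, with *Fastkd2* first (log2 difference 0.53, SE 0.081, adjusted p = 0.00670 by limma). Both mitochondrial ribosomal RNAs fell, with *mt-Rnr1* first (log2 difference -0.999, SE 0.12, adjusted p = 0.00266 by limma). Of the enterocyte markers 3 of 6 and of the enteroendocrine markers 4 of 4 were lower, and 3 of 4 Paneth and 2 of 4 stem cell markers higher, and their part in the members' differences was not tested.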

How the data were processed

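The authors deposited FPKM values: per the file headers, 1 table per tissue library holds FPKM by gene, and the organoid table, whose header names no unit, was taken as FPKM because its rows, decimals and range are the same. HISAT2 2.1.0, StringTie 1.3.3b and mm10 are named in the submitters' processing notes, and their roles and any strand setting are not given in the sources used here. Per the labels' protocols total RNA was extracted with RNeasy and libraries were made with a NEBNext Ultra kit. Mitochondrial ribosomal RNAs made up 0.0709 to 0.436% of a library's summed FPKM. Whether a selection of RNA before sequencing bears on the mitochondrial values was not tested. FPKM depends on what else a library holds, so values were also rescaled as alternatives. Gene names came from GENCODE M21: 54809 of 54838 gene rows matched, and 108 symbols belong to more than 1 row.

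Values were taken as log2(FPKM + 1) and tested with limma 3.58.1 in R 4.3.3 (lmFit and eBayes with trend, two-sided), on genes with at least 1 FPKM in at least 2 libraries. The fit used 10 tissue libraries (day 3, with 1 library per gate, was left out) and 8 organoid libraries. It gave 15 comparisons, with Benjamini-Hochberg adjustment over all genes tested in each. The code was tested on simulated data. A rough depth came from the value steps of 21507 genes that have a single transcript of a single exon, and sums were made with pandas 2.3.3. Files give no counts, so no counting interval is given. No 2 libraries were identical.

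The members and the gene lists were chosen with earlier results of these data known. All 13 mitochondrial members are given by level. Named with a test were mt-Co1, mt-Nd1, mt-Nd6, mt-Cytb, mt-Atp6, Ndufs1, Ndufa4, Sdha, Uqcrc1, Cycs, Cox4i1 and Cox5a, and in each comparison the called members of smallest p, up to 5 per direction and class. Where none was called, the member of smallest p was named, and from each other list the called gene of smallest p could be. Sdhd, Sdhb at day 6 against Lgr5-high, Ndufb10 and Uqcrc2 in organoids, and genes named as neighbours or pseudogenes were chosen after their values were seen. Alternatives were another pseudocount, no filter, 3 other scalings, only the compared groups in the fit, a replicate block and leaving out each library. Leaving out both libraries that stand apart and taking out a trend with gene length were added after the data were seen.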

Additional observations from a re-analysis of the deposited data

How the results depend on the processing

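The share of all genes called under each setting is not given here, so the counts below show only how the members' calls moved. The number of members called moved with the processing. Between WT gates it was 0, and 4 with only these groups in the fit. At day 6 against WT Lgr5-high it was 4, and 0 with equal sums of FPKM, 0 with sums made equal without mitochondrial genes, 2 with median-of-ratios scaling and 2 without both libraries that stand apart. Against WT Lgr5-low it was 5, and 2 with no filter on low values, 3 with equal sums, 2 with median-of-ratios scaling and 8 with the length trend taken out. For AKFP minus knockout it was 11, and 4 with no filter and 7 with the length trend taken out. For AKFP minus AKF it was 9, and 4 with no filter, 2 with only these groups, 6 with median-of-ratios scaling and 5 with the length trend taken out. For organoid knockout minus WT it was 18, and 25 with equal sums, 14 with no filter and 24 with the length trend taken out. With no filter more genes were tested, and the cause of the other changes was not tested.

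Leaving out each library in turn gave counts of 8 to 12 for organoid knockout minus WT, 15 to 19 for AKF minus WT, 22 to 28 for AKFP minus WT, 0 to 7 for AKFP minus knockout and 0 to 7 for AKFP minus AKF. In tissue they were 0 to 5 at day 4 in Lgr5-high, 0 to 9 between the day 4 gates, 0 to 4 and 0 to 5 at day 6 against WT Lgr5-high and Lgr5-low, and 0 to 12 from day 4 Lgr5-high to day 6. For the WT gates, day 4 in Lgr5-low, the difference of the day 4 changes, day 4 Lgr5-low to day 6, and AKF minus knockout they were 0 to 0. A group left with 1 library is assumed to vary like the others. Called genes were followed one by one only if fixed beforehand or among the up to 5 of smallest p per direction and class. Of 481 values of these genes under settings that kept all libraries or dropped the 2 that stand apart, 407 stayed past the threshold and 0 reversed. With 1 library left out a smaller share stayed and 0 reversed, in fits that leave 1 library in a group. Called members not followed may have held less often, which was not tested.

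In tissue, same-numbered libraries deviated together in all 10 pairs of groups, with correlations of 0.024 to 0.52. The correlation was 0.44 between the WT gates and 0.34 between the day 4 gates. In organoids the correlations were -0.039 to 0.091. The numbers were not taken as pairs, since no label pairs them. Whether tissue libraries of the same number share a batch or animal was not tested. With a replicate block 26 members were called for organoid knockout minus WT, 29 and 30 for AKF and AKFP minus WT, 13 for AKFP minus knockout, 12 for AKFP minus AKF, 4 and 6 at day 6 against WT Lgr5-high and Lgr5-low, and 0 in the others.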
